A study of Mus musculus with 6 samples.

Results

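Aquaporins are membrane channels for water and, in some members, for glycerol, ammonia or ions. The 7 aquaporin genes described here are Aqp1, Aqp4, Aqp5, Aqp6, Aqp8, Aqp9 and Aqp11, out of 17858 genes that have an array row of their own. They were named as a family with earlier results of these data known, and each gene's row was to be chosen by its highest mean over all 6 arrays. No member had more than 1 row, so that step chose nothing. RNA came from the cerebellum of C57BL/6 mice and was hybridised to Affymetrix mouse exon arrays, with 3 arrays at 6wk (6 weeks of age) and 3 at P7 (day 7 after birth). Both groups are described as the same strain and tissue, with no treatment. The series description links the age comparison to 5-hydroxymethylcytosine, the oxidised form of 5-methylcytosine. The labels do not say that the arrays of an age came from separate animals, and the p-values below reflect the spread between these 6 arrays, some of which may be technical.

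In the brain, AQP4 lies in the astrocyte membrane, densely at the endfeet around vessels, where a dystroglycan complex anchors it. AQP1 is the water channel of the choroid plexus epithelium, which secretes cerebrospinal fluid. AQP6 was described in rat as a channel of intracellular vesicles in kidney collecting duct cells that passes anions and little water. AQP5 serves gland and airway epithelia, AQP8 carries water and ammonia, AQP9 carries glycerol and water, and AQP11 is a divergent member of the endoplasmic reticulum.

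Aqp2, Aqp5 and Aqp6 follow each other on chromosome 15 in RefSeq's gene table of assembly GRCm38.p6, and the next gene is Racgap1. Their start regions are shown because Aqp6 had the largest difference between the ages of the family. Aqp5, next to Aqp6, and Aqp2, next to Aqp5, were not called, whereas Racgap1 on the other side was called lower (-1.54). Each run is a RefSeq window of 300 bases, from 250 before to 50 after a transcript start, on the plus strand of GRCm38.p6, with each CpG, the dinucleotide at which most cytosine methylation occurs, in capitals. The windows are chr15:99600950-99601249 for Aqp6, chr15:99590778-99591077 for Aqp5 and chr15:99578806-99579105 for Aqp2.
Aqp6: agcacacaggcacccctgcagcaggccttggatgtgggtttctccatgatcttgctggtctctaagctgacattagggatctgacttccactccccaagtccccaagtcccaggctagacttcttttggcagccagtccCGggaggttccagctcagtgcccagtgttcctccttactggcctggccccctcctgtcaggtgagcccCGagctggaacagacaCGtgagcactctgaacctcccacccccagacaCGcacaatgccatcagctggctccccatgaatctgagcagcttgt
Aqp5: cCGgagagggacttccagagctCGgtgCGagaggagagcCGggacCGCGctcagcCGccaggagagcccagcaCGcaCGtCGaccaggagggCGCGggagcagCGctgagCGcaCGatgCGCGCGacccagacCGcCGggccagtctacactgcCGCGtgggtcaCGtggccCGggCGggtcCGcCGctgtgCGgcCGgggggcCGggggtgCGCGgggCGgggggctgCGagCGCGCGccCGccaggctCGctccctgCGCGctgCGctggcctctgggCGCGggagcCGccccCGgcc
Aqp2: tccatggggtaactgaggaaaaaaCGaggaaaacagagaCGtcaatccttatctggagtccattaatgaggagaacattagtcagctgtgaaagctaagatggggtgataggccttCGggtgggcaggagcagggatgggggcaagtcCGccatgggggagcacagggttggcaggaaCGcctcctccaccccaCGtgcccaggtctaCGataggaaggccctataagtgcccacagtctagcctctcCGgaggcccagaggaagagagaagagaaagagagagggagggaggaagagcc

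The Aqp6 window holds 4 CpGs, the Aqp5 window 46 and the Aqp2 window 8. Of 32851 such windows in the RefSeq table, the median holds 7, and 38.0% hold 4 or fewer, whereas 98.4% hold fewer than the Aqp5 window. Windows were matched for 6 of the 7 members, with none for Aqp4. The Aqp11 window holds 27 CpGs, those of Aqp1 and Aqp8 hold 8 and 6, and those at the pair of Aqp9 starts hold 1 and 4. No methylation value was analysed here, so the counts describe the letters of these windows.

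The arrays themselves differed within the P7 group. P7 replicates 2 and 3 carried more signal of genes of dopamine and serotonin neurons, with medians of a list of 9 genes of adjoining tissue of 9.12 and 8.96, against 7.37 in P7 replicate 1 and 7.02 to 7.56 in the 6wk arrays. P7 replicate 2 was also lowest of the P7 arrays in 8 of 9 mature granule neuron genes, where 40.7% of all genes were lowest in that array. Across all 23750 rows the P7 arrays correlated with each other at r = 0.952 to 0.985 and the 6wk arrays at 0.984 to 0.989, over rows that are not independent. Hoxb3 and Hoxb4, hindbrain genes on that list named after their values were seen, did not follow, with 9.07, 8.30 and 9.10 for Hoxb3 and 8.66, 8.41 and 8.45 for Hoxb4 in P7 replicates 1, 2 and 3. Of the 9 genes of the list 1 fell at 6wk and 0 rose, where 13.4% of all genes fell and 8.26% rose. The fall was that of En1 (-0.66, limma adjusted p = 0.0245), called in 2 of 6 fits that each left out 1 array. The dopamine and serotonin genes Slc6a3, Th, Tph2, Slc6a4, Slc18a2 and Ddc were not called. Several results below are also given without P7 replicate 2, and in tissue RNA fewer cells of a type and less RNA per cell cannot be told apart.

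Aqp6 rose steeply between the ages. Its deposited log2 values were 9.78, 9.54 and 9.53 in 6wk replicates 1, 2 and 3, and 7.16, 5.79 and 6.28 in P7 replicates 1, 2 and 3. The lowest 6wk array lay 2.37 above the highest P7 array, and the P7 arrays spread over 1.37 against 0.25 at 6wk. The mean was 9.61 ± 0.14 (SD, n = 3) at 6wk and 6.41 ± 0.69 (SD, n = 3) at P7, a log2 difference of 3.20 (SE 0.33, 95% interval 2.41 to 3.99, limma adjusted p = 0.00193 over all 17858 genes). On the deposited values this is 9.20-fold higher at 6wk.

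The position of Aqp6 within each array shifted in the same way. At 6wk, between 84.1% and 87.9% of rows lay below it, in the top quartile of all 3 arrays. At P7, 31.2%, 10.6% and 13.1% of rows lay below it in replicates 1, 2 and 3, which put it under the first quartile in 2 of the 3 arrays. Olfactory receptor genes, which the cerebellum is not known to use, give a rough level of unspecific signal, with medians of 4.48 to 4.64 and 95th percentiles of 7.45 to 7.61 in the P7 arrays. Aqp6 lay between those levels in every P7 array and above them at 6wk, so gene and unspecific signal cannot be told apart at P7 and the fold change is uncertain in size.

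Aqp6 was called with each array left out, with differences from 2.89 to 3.58 and limma adjusted p from 0.00123 to 0.0151. The lowest of these came without P7 replicate 2, and with P7 replicate 1 as the only P7 array the difference was 2.45 (adjusted p = 0.00284). With 1 array at P7 that fit takes its spread from the 6wk arrays alone.

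**Figure D1:**
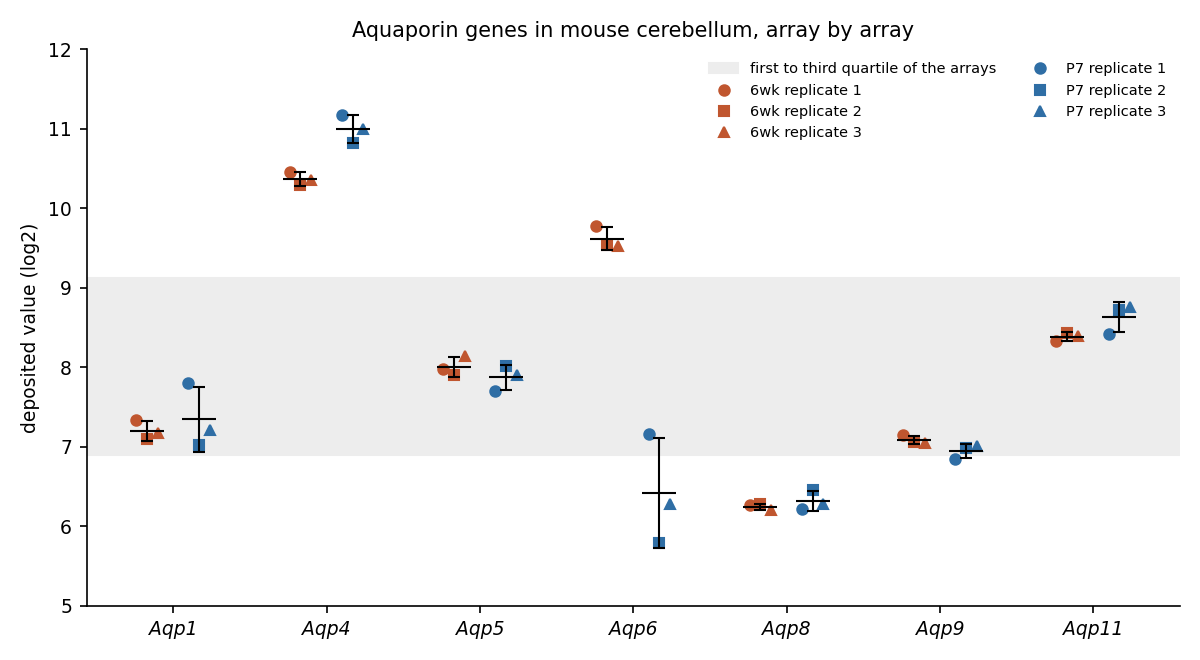
Deposited log2 values of the 7 aquaporin genes, with 6wk arrays left of P7 arrays for each gene, symbols for the replicates, bars for mean ± SD (n = 3) and a grey band from the lowest first quartile to the highest upper quartile of the arrays. Aqp6 at 6wk (9.53 to 9.78) stands above the band and at P7 (5.79 to 7.16) mostly below it, and Aqp4 lies above the band at both ages.

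Aqp6 and genes of mature granule neurons, the main neuron of the cerebellum, were higher at 6wk in the same arrays. So were Purkinje cell genes, of which 4 of 7 measured rose, 0 fell and 3 did not pass (median log2 difference 1.20). Of 9 measured granule neuron genes 5 rose, none fell and 4 did not pass, where 8.26% of all genes rose and 13.4% fell. Their median log2 difference was 1.68 (1.27 and 7 rises without P7 replicate 2). Cbln3, a cerebellin, read 12.16, 11.90 and 11.89 at 6wk and 9.65, 6.28 and 8.79 at P7. Grin2c, an NMDA receptor subunit, and Gabrd, a GABA-A receptor subunit, rose by 2.47 and 1.95. In P7 replicate 2 both of them and Cbln3 lay under the 95th percentile of olfactory receptor genes (7.61), so the size of these differences is uncertain. Cbln3 rose by 3.74 (2.76 without P7 replicate 2) and lost its call in 4 of the 6 fits that left out an array. Grin2c and Gabrd kept theirs in all 6. Those fits called 9.22% to 26.8% of all genes, against 21.7% with all arrays. A call lost in them, here and below, can go with fewer calls among all genes.

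The P7 arrays stood in the order replicate 1, 3, 2 from high to low for Aqp6, as they did for 8 of the 9 granule neuron genes and 6 of 7 Purkinje cell genes. The same order was found in 8 of 13 Bergmann glia and astrocyte genes, in 6 of 10 choroid plexus and ependyma genes, in Aqp4 and Aqp1, and in 34.1% of all genes. The summed level of the granule neuron genes, on the linear scale of the arrays, ranged from 28740 to 32339 at 6wk and from 10120 to 17488 at P7, and none of the 9 was under the first quartile in all 6 arrays. The part of granule neurons, of Purkinje cells or of glia in the Aqp6 difference was not tested.

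**Figure D2:**
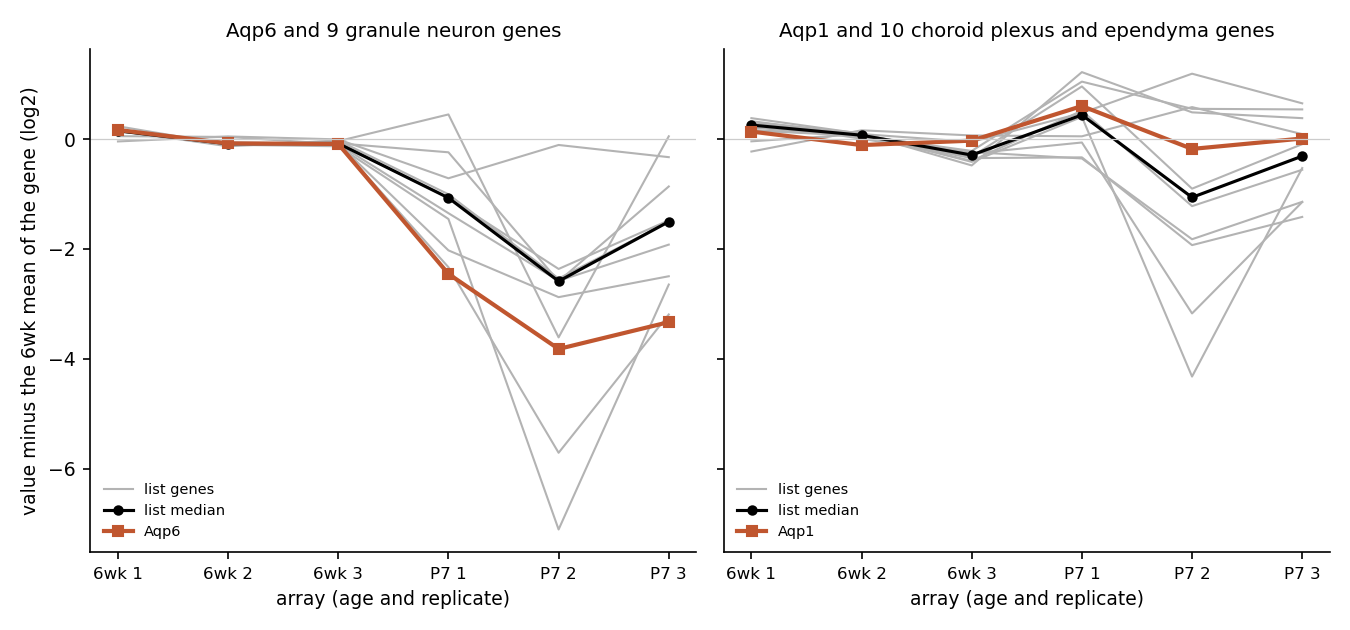
Log2 values in the 6 arrays, each gene set to its 6wk mean, for Aqp6 with 9 granule neuron genes (left) and Aqp1 with 10 choroid plexus and ependyma genes (right); lines join the values of 1 gene, and black marks the list median. Aqp6 and most granule neuron genes are lowest in P7 replicate 2, and Aqp1 and the choroid plexus list median are highest in P7 replicate 1.

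The genes whose pattern over the 6 arrays was most like that of Aqp6 were Exph5, Fam107a, Chil5, Dao and Gpd1. Likeness was the root mean square difference of log2 values after each gene was centred on its own mean, and it ran from 0.15 to 0.32 for these genes. Exph5, a Rab27-binding protein of vesicle transport, read 9.74, 9.59 and 9.60 at 6wk and 7.14, 6.04 and 6.68 at P7. Fam107a, an actin-associated protein, read 11.25, 11.42 and 11.33 at 6wk and 8.94, 7.69 and 8.27 at P7. Chil5 is a chitinase-like protein, Dao oxidises D-serine, and Gpd1 is the cytosolic glycerol-3-phosphate dehydrogenase. The log2 differences of the 5 genes ran from 2.88 to 3.51, and these genes were picked for this pattern, so their values are a description. In every P7 array Exph5, Chil5 and Dao lay under the 95th percentile of olfactory receptor genes (7.45 to 7.61). Gpd1 did so in P7 replicate 2. The size of these differences is therefore uncertain, as for Aqp6.

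**Figure D3:**
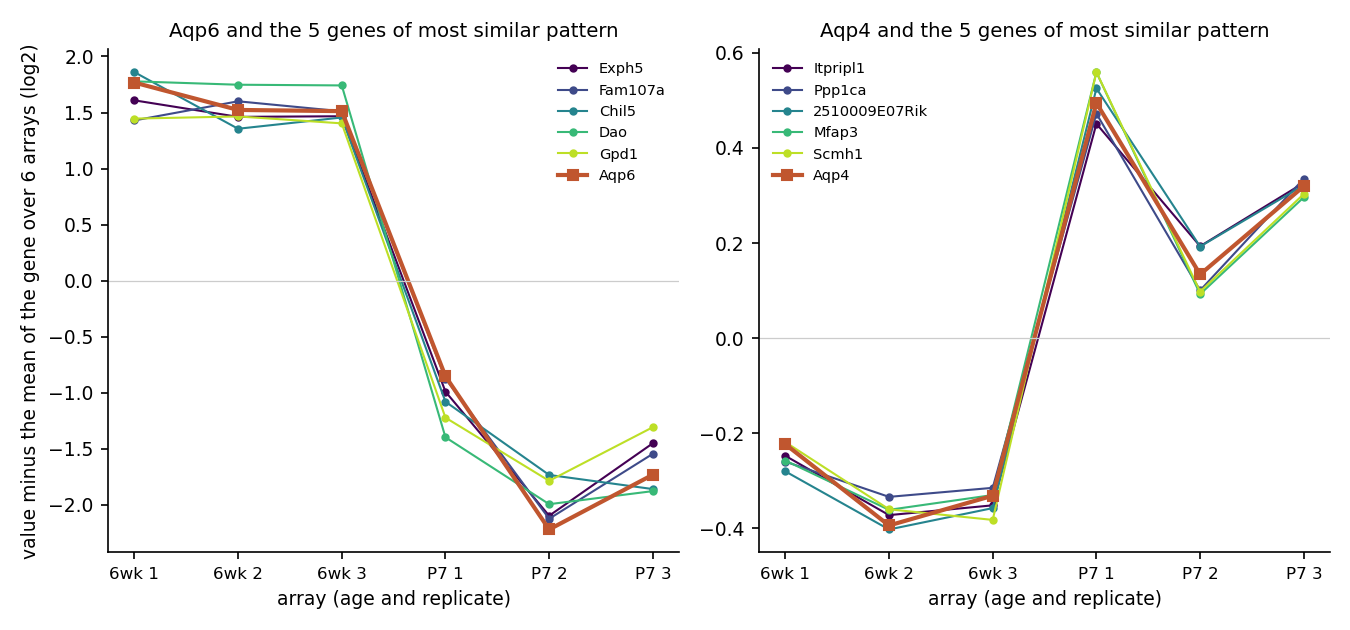
Log2 values in the 6 arrays, each gene centred on its mean, for Aqp6 (left) and Aqp4 (right) with the 5 genes of most similar pattern; lines join the values of 1 gene and the vertical scales differ between panels. Within P7, replicate 2 is lowest for Aqp6 and for Aqp4.

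Neither chromosomal neighbour of Aqp6 was called higher at 6wk. Aqp5 read 7.98, 7.90 and 8.14 at 6wk and 7.70, 8.01 and 7.90 at P7. The ages overlapped, and the log2 difference of 0.13 (SE 0.12, 95% interval -0.14 to 0.41) was not called (limma adjusted p = 0.463). Without P7 replicate 2 it was 0.20 (adjusted p = 0.251). Aqp2, the vasopressin-regulated channel of the kidney, differed by 0.08 (95% interval -0.30 to 0.45), with ages that overlapped. In every array but 6wk replicate 3 it lay under the 95th percentile of olfactory receptor genes, where unspecific signal cannot be told apart. Racgap1, which acts in cell division on the other side of Aqp6, read 7.45, 7.72 and 7.68 at 6wk and 9.82, 8.35 and 9.31 at P7. Racgap1 fell by 1.54 on the log2 scale (adjusted p = 0.0253), and this call was lost in 4 of the 6 fits that left out an array, with adjusted p up to 0.0938. Without P7 replicate 2 the difference was -1.95 and called (adjusted p = 0.00129).

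Aqp4 was the other called member, and it fell. Its values were 10.46, 10.29 and 10.35 in 6wk replicates 1, 2 and 3, and 11.18, 10.82 and 11.00 in P7 replicates 1, 2 and 3. All 6wk arrays lay below all P7 arrays, with 0.36 between the nearest. The mean was 10.37 ± 0.09 (SD, n = 3) at 6wk and 11.00 ± 0.18 (SD, n = 3) at P7, a log2 difference of -0.63 (SE 0.12, 95% interval -0.91 to -0.35, limma adjusted p = 0.0125), or 0.645 times the P7 level. It stayed high in every array, with 92.9% to 94.4% of rows below it at 6wk and 95.9% to 97.1% at P7.

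The Aqp4 call was lost in 3 of the 6 fits that left out an array, with little change in the difference. These were the fits without 6wk replicate 2 (limma adjusted p = 0.0559), 6wk replicate 3 (0.0590) and P7 replicate 3 (0.0596). Their differences were -0.59, -0.62 and -0.63. In them 11.3%, 9.75% and 9.22% of all genes were called, against 21.7% with all arrays. The call held without P7 replicate 2 (-0.72, limma adjusted p = 0.00490). With P7 replicate 1 alone the difference was -0.81. With the median of every array set equal, the difference was -0.53 (adjusted p = 0.0226).

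Genes of the complex that holds AQP4 at the endfeet moved both ways. Of 9 measured members 2 rose, 2 fell and 5 did not pass, where 8.26% of all genes rose and 13.4% fell. Their median was 0.27, where the median of all genes was -0.05. Without P7 replicate 2, 2 rose and 3 fell. Dag1, dystroglycan, the laminin receptor of the complex, read 10.10, 10.08 and 10.16 at 6wk and 10.65, 10.69 and 10.66 at P7. Dtna, alpha-dystrobrevin, read 10.51, 10.46 and 10.42 at 6wk and 9.96, 9.98 and 9.96 at P7. Neither gene's ages overlapped, with log2 differences of -0.55 for Dag1 and 0.50 for Dtna, each called in all 6 fits that left out an array.

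Agrn, agrin of the basement membrane, differed by -0.90 (limma adjusted p = 0.0374), with 8.07, 8.32 and 8.31 at 6wk and 8.66, 9.58 and 9.16 at P7. Its highest value was in P7 replicate 2, and its call was lost in 4 of the 6 fits that left out an array. Utrn, utrophin, named after its value was seen, was the other rise (0.49) and lost its call in 4 of those fits as well. Kcnj10, the inwardly rectifying potassium channel found beside AQP4 at endfeet and named after its value was seen, read 9.97, 10.48 and 10.57 at 6wk and 9.57, 9.86 and 9.88 at P7 and was not called (0.57, limma adjusted p = 0.0720).

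Genes with which astrocytes handle ions and cell volume comprised 11 measured members. Of these 3 rose, 0 fell and 8 did not pass, where 8.26% of all genes rose and 13.4% fell. The median was 0.35 (0.27 and also 3 rises without P7 replicate 2). Gjb6, connexin 30, rose by 1.51 and Atp1b2, the glial sodium pump subunit, by 0.66. Hepacam, an adhesion protein of astrocyte contacts, differed by 0.46, and its call was lost in 3 of the 6 fits that left out an array.

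Bergmann glia and astrocyte markers also split. Of 13 measured, 5 rose, 3 fell and 5 did not pass, where 8.26% of all genes rose and 13.4% fell. The median was 0.53 (0.11 with the same counts without P7 replicate 2). Etnppl, an enzyme that breaks down phosphoethanolamine, rose by 4.44, from P7 values of 4.94 to 5.17. These values lay under the 95th percentile of olfactory receptor genes, so the size of its rise is uncertain. Gjb6 rose by 1.51, whereas Fabp7, a lipid carrier of immature glia, fell by 2.41. The other falls, named after their values were seen, were Gfap, the astrocyte intermediate filament protein, by 0.84 (limma adjusted p = 0.0234, a call lost in 4 of the 6 fits that left out an array) and Aldh1l1, a folate enzyme of astrocytes, by 0.79 (adjusted p = 0.00953, called in 5 of the 6). The summed level of the list was 15480 to 16375 at 6wk and 14346 to 17500 at P7, ranges that overlap. Of 10 endothelial and pericyte markers 3 rose and 5 fell, but 3 fell after median centring, after quantile normalization and with the replicate block. Of 10 markers of meninges and fibroblasts 1 rose and 4 fell (6 without P7 replicate 2). The part of these cells in the Aqp4 difference was not tested.

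The genes closest to Aqp4 in pattern were Itpripl1, Ppp1ca, 2510009E07Rik, Mfap3 and Scmh1, at root mean square differences of 0.034 to 0.040. Ppp1ca, a catalytic subunit of protein phosphatase 1, read 10.51, 10.44 and 10.45 at 6wk and 11.24, 10.87 and 11.10 at P7. The log2 differences of the 5 genes ran from -0.69 to -0.61, and these genes too were picked for their pattern, so their values are a description.

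Aqp1, the choroid plexus channel, varied more within P7 than between the ages. It read 7.34, 7.09 and 7.17 in 6wk replicates 1, 2 and 3, and 7.80, 7.02 and 7.21 in P7 replicates 1, 2 and 3. The 6wk values lay within the range of the P7 values. The mean was 7.202 ± 0.13 (SD, n = 3) at 6wk and 7.35 ± 0.41 (SD, n = 3) at P7, and the log2 difference of -0.14 (SE 0.21, 95% interval -0.64 to 0.35) was not called (limma adjusted p = 0.666). The P7 SD of Aqp1 was larger than that of 86.7% of all genes.

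Choroid plexus and ependyma markers differed between the same arrays. Their median level was 8.30, 8.09 and 7.80 in 6wk replicates 1, 2 and 3, and 8.64, 7.203 and 7.71 in P7 replicates 1, 2 and 3. P7 replicate 1 was the highest P7 array in 8 of 10 of these genes, as for 41.6% of all genes. Ttr, transthyretin, the most abundant choroid plexus transcript, was named after its values were seen and read 11.88, 11.67 and 11.15 at 6wk and 11.97, 7.24 and 11.04 at P7. The summed level of the list was 4421 to 6619 at 6wk and 2028 to 7273 at P7, and none of the 10 genes was under the first quartile in all 6 arrays.

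With P7 replicate 1 as the only P7 array, Aqp1 differed by -0.60 (limma adjusted p = 0.0387), and the choroid list by a median of -0.44, against 0.22 with all arrays, 0.69 without P7 replicate 1 and -0.02 without P7 replicate 2. Without that array Aqp1 differed by 0.08 (adjusted p = 0.632), and without P7 replicate 2 by -0.31 (adjusted p = 0.284). Of the 10 choroid plexus and ependyma genes none rose and 2 fell with all arrays, Enkur by 0.77 and Otx2 by 0.71. Each of these calls was lost in 4 of the 6 fits that left out an array. Since 8.26% of all genes rose and 13.4% fell, these counts are near the background share, as is that of the blood cell markers below. With array medians set equal 0 of the 10 fell, and without P7 replicate 1, 3 rose. The part of choroid plexus tissue in the Aqp1 values was not tested. AQP1 is also a red cell protein. The red cell and granulocyte markers had medians of 6.74 to 7.12 at 6wk and 7.26 to 7.51 at P7, with 1 fall (Slc4a1, the red cell anion exchanger, by 0.40) among 7, a call lost in 5 of the 6 fits that left out an array, with array medians set equal, after quantile normalization and with the replicate block, and 2 of the 7 under the first quartile in all 6 arrays.

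Aqp11 stood slightly lower at 6wk, without a call. It read 8.33, 8.44 and 8.40 in 6wk replicates 1, 2 and 3, and 8.42, 8.72 and 8.75 in P7 replicates 1, 2 and 3. P7 replicate 1 lay within the range of the 6wk arrays, while P7 replicates 2 and 3 lay above it. The log2 difference was -0.25 (SE 0.11, 95% interval -0.52 to 0.03, limma adjusted p = 0.180). Without P7 replicate 1 it was -0.35 and called (adjusted p = 0.0334), and with P7 replicate 1 alone it was -0.03 (adjusted p = 0.841). P7 replicates 2 and 3 are the arrays with more signal of dopamine and serotonin neuron genes, and the part of that tissue was not tested.

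Aqp9, the glycerol channel best known from liver, read 7.15, 7.05 and 7.05 in 6wk replicates 1, 2 and 3, and 6.85, 6.98 and 7.01 in P7 replicates 1, 2 and 3. Its ages did not overlap, but by a gap of 0.04. The log2 difference of 0.14 (SE 0.09, 95% interval -0.07 to 0.35) was not called (limma adjusted p = 0.313). A list of genes that handle glycerol, ammonia, monocarboxylates or urea had 9 measured members, of which 4 rose and 1 fell (median 0.03). Of all genes tested 8.26% rose and 13.4% fell. The rises were all of glycerol or ammonia genes, among them Gpd1 by 2.88 and Glul, glutamine synthetase, by 0.81. Glul was the only ammonia gene to rise, and the ammonia transporters Rhbg (-0.11) and Rhcg (-0.14) were not called. The rise of Gpd2, another glycerol gene of the list, was called in 1 of the 6 fits that left out an array. The fall was that of Slc16a1, a monocarboxylate transporter, by 1.07.

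Aqp8 read 6.26, 6.27 and 6.20 in 6wk replicates 1, 2 and 3, and 6.22, 6.46 and 6.28 in P7 replicates 1, 2 and 3. It was under the first quartile in all 6 arrays, the ages overlapped, and the difference of -0.07 (95% interval -0.30 to 0.15) was not called (limma adjusted p = 0.631). Without P7 replicate 2 it was -0.0026. Its sign turned when the medians of the arrays were set equal (0.024). Aqp8 and Aqp9 lay under the 95th percentile of olfactory receptor genes in every array, as did Aqp1 in every array but P7 replicate 1. At such levels signal from the gene and unspecific signal cannot be told apart.

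In all, 1 of the 7 members rose and 1 fell, and 5 were not called. Among all genes tested 8.26% rose and 13.4% fell at 6wk, 21.7% in either direction, so 2 calls among 7 genes are near the background share. Lower genes made up 61.9% of all calls with the deposited scaling but 44.8% with array medians set equal and 45.4% after a further quantile normalization. The ages did not overlap in 3 members, Aqp4, Aqp6 and Aqp9, against 42.1% of all genes, of which 16.4% were higher and 25.7% lower at 6wk without overlap. The median log2 difference of the 7 members was -0.07, beside -0.05 for all genes.

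The other 5 genes of the family with a row, Mip, Aqp2, Aqp3, Aqp7 and Aqp12, gave 0 calls with limma, and 0 had an unadjusted p under 0.05. With array weights, in a fit that did not converge, 2 of them were called lower. Mip is the channel of the eye lens, and Aqp3 and Aqp7 carry glycerol. The log2 differences of the 5 genes ran from -0.15 (Mip) to 0.16 (Aqp3), each with ages that overlapped. Aqp7 and Aqp12 lay under the 95th percentile of olfactory receptor genes in every array. Aqp2 did so in all but 6wk replicate 3, and Mip in all but P7 replicates 1 and 3. At such levels the lack of a call does not show that a gene was unchanged.

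**Figure D4:**
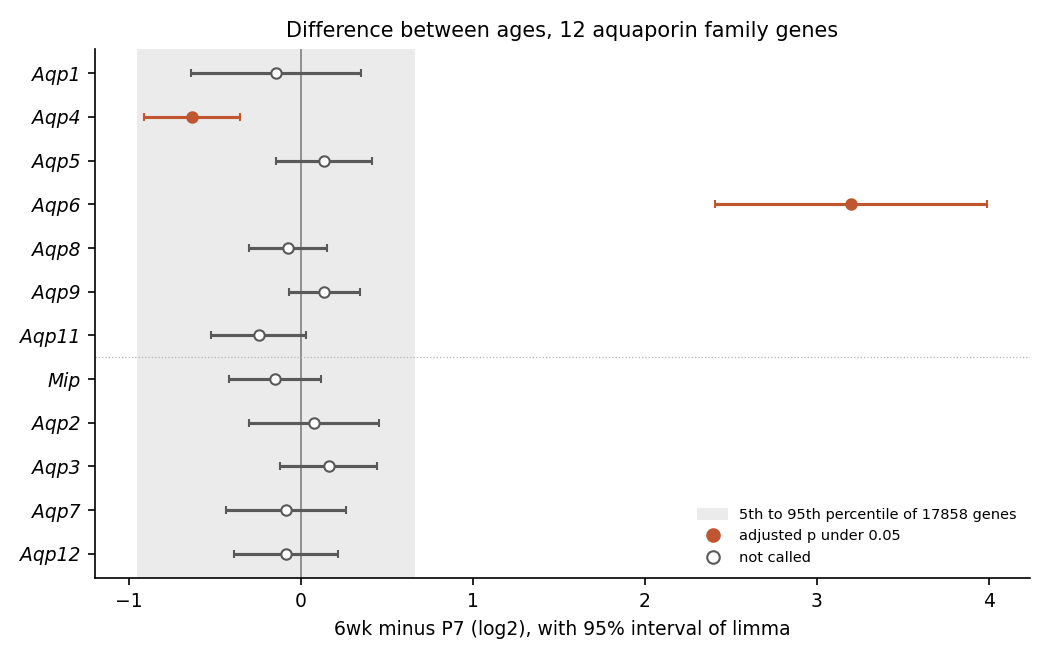
Log2 differences 6wk minus P7 with 95% intervals from limma for the 7 aquaporin genes (above the dotted line) and 5 other family genes (below it); filled orange points were called, and the grey band spans the 5th to 95th percentile of all genes (-0.95 to 0.66). Aqp6 at 3.20 lies outside the band, and those of the other genes lie inside it.

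**Figure D5:**
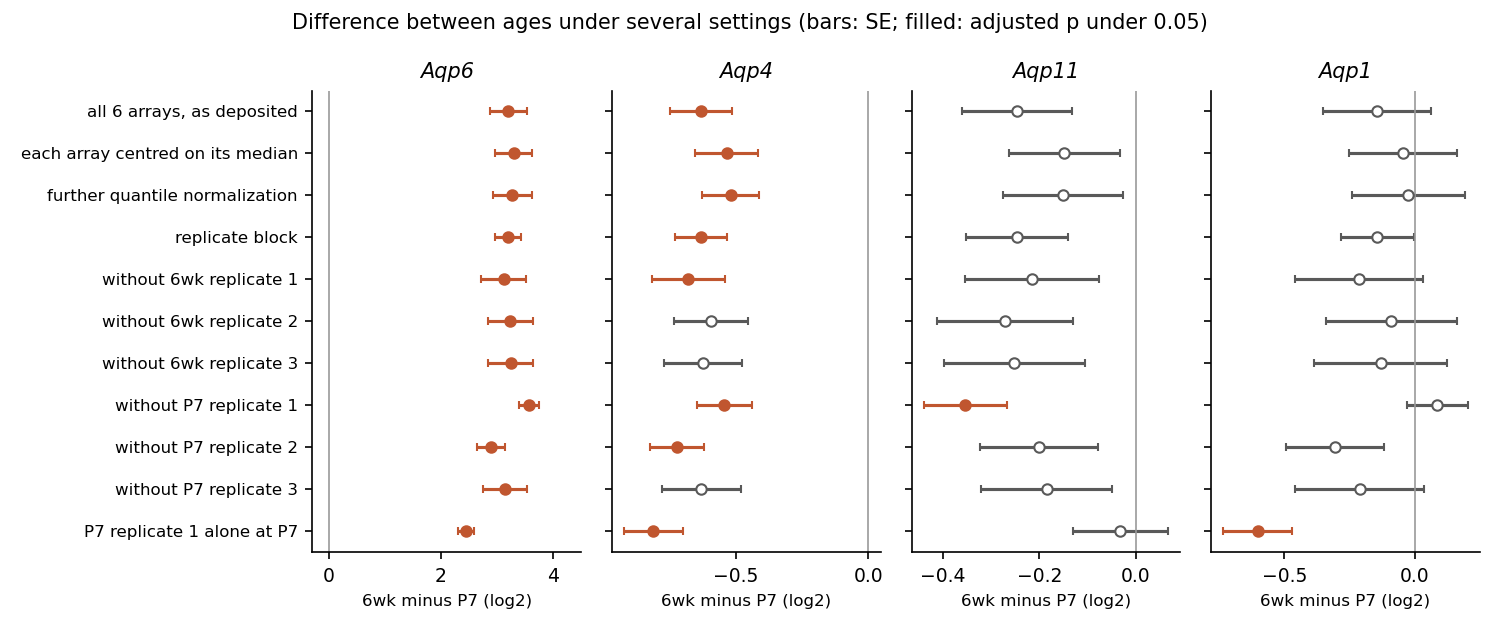
Log2 differences 6wk minus P7 with SE for Aqp6, Aqp4, Aqp11 and Aqp1 with all arrays as deposited, under other scalings, with a replicate block and with arrays left out; filled points were called, and the horizontal scale differs between panels. Aqp6 is called in every fit shown, Aqp4 is not called in 3 of them, and Aqp1 crosses 0 without P7 replicate 1.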

How the data were processed

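Values are the series' deposited table, on the log2 scale, 1 column per array and no column left unused. Per the submitters' processing notes, the authors used RMA with Affymetrix Power Tools and genome mm9 (no versions stated); a filter is not stated. From their decimals (each value times the number, within 0.01 to 0.03 of a unit in the fifth decimal) member rows read as means of 4 (Aqp8) to 15 (Aqp4) probe-set values, 6 for Aqp6, so a change in 1 exon can be hidden.

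Of 23750 rows, 18463 have 1 gene symbol in the array annotation, 1799 several and 3488 none; 471 genes had several rows and kept the one with the highest mean. All 17858 genes were fitted with limma 3.58.1 (R 4.3.3; lmFit, eBayes, no block), 6wk minus P7, two-sided, with Benjamini-Hochberg adjusted p under 0.05 called. The number of arrays limits precision. The fit was tested on simulated data. Members, lists and tests were chosen with earlier results of these data known. Named from lists were up to 3 called genes without overlap, by size of difference, plus the 5 most similar genes and the chromosomal neighbours of called members. Alternatives were scaling, a filter on dim genes, array weights, variance model, row choice, a replicate block and left-out arrays. The labels do not pair the arrays by replicate number. Deviations of same-numbered arrays correlated at 0.27, 0.14 and -0.056. Deviations from a mean of 3 arrays are not independent, so these values cannot settle whether the arrays were paired.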

Additional observations from a re-analysis of the deposited data

How the results depend on the processing

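Aqp6 kept its direction and its call under all 14 alternatives (2.45 to 3.58). Leaving out 1 array gave -0.72 to -0.54 for Aqp4, -0.31 to 0.08 for Aqp1, -0.35 to -0.19 for Aqp11, 0 to 2 aquaporin genes called lower, and 682 to 1788 genes called higher and 965 to 3073 lower in all. Aqp1 was reversed without P7 replicate 1 (0.084). Aqp8 was reversed after median centring (0.024), after quantile normalization (0.00087) and with P7 replicate 1 alone (0.026); it was never called, and the filter on dim genes removed it. With P7 replicate 1 alone, Aqp1 was called (-0.60), which made 2 aquaporin genes called lower. With array weights Aqp11 was called (-0.36), again giving 2 lower, and 4425 genes were called higher and 6933 lower; those weights ran from 0.097 to 341 and did not converge, so that fit is not reliable. With the replicate block, Aqp6 differed by 3.20 (limma adjusted p = 0.00589) and Aqp4 by -0.63 (0.0193), and 3273 genes were called, against 3870 without it; no member's call changed. The causes of these changes were not tested. The dim levels of Aqp8 and Aqp9 at both ages, of Aqp1 in every array but P7 replicate 1 and of Aqp6 at P7 limit what their differences can show.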
